A study of Mus musculus with 12 samples.

Results

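The genes described here are 10 genes of the Ras-MAPK cascade, namely feedback and target genes and Hras, which encodes a Ras protein. They were measured in mouse prostate tumors grown from TC2Ras cells, a Ras-driven prostate cancer cell line. They are Dusp4, Dusp5, Dusp6, Spry2, Spry4, Spred1, Etv4, Etv5, Phlda1 and Hras. They were chosen by name, as the rows of the count table whose Ensembl identifier carries 1 of these symbols, and all 10 were found among the 55401 genes of the table. Expression was measured by sequencing of polyadenylated RNA in 12 tumors excised 21 days after 125000 cells were injected under the skin of the flanks, and each library combines the left and right flank tumors of 1 mouse. All mice ate low-arsenic AIN-76A chow and drank Milli-Q water for 2 weeks before the injection. The 4 groups hold 3 tumors each. Control tumors grew from TC2Ras cells alone in mice given 0 ppb inorganic arsenic (iAs). ASC tumors grew from TC2Ras cells with 1% adipose-derived stromal cells that carry GFP (ASC) at 0 ppb. The ASC came from transgenic mice in which the ubiquitin C promoter drives GFP. As300 tumors grew from TC2Ras cells alone in mice that drank 300 ppb iAs, and ASC_As300 tumors had both the 1% ASC and the 300 ppb iAs. Which Ras gene the line carries, and the strain, sex and age of the hosts, are not given in the sources used here.

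Ras proteins are membrane-bound GTPases that, when loaded with GTP, recruit RAF kinases and so activate MEK and then ERK. Active ERK induces genes that in turn restrain the pathway. Dual-specificity phosphatases remove the activating phosphates from MAP kinases, and Sprouty and Spred proteins act upstream, on receptor signaling, Ras and RAF. The transcription factors of the PEA3 group, Etv4 and Etv5, are induced by ERK and are active in prostate cancer, so that the summed level of such genes is often read as a measure of pathway output.

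The labels name adipose-derived stromal cells as the cell type of every library, although each was made from a whole tumor and also held RNA of leukocytes, endothelium and muscle. Ptprc, the leukocyte common antigen CD45, lay between 26.6 and 101 CPM (counts scaled to library size, with edgeR's TMM factors), and 14 leukocyte genes summed to 343 to 624 CPM. Some genes that mark prostate epithelium were at or near 0. Pbsn was at 0 counts in all 12 tumors, and Hoxb13 had at most 4 counts in any library. Of 10 epithelial genes, Krt8 was the most abundant (24.1 to 337 CPM), and the list summed in Control to between 67.3 and 364 CPM, in As300 to between 98.5 and 121, in ASC to between 32.4 and 49.0 and in ASC_As300 to between 27.7 and 42.6. The 7 skeletal muscle genes summed to 1.96 to 1622 CPM and were highest in Control replicate 2 and As300 replicate 1, and 8 proliferation genes summed to 1381 to 1498 CPM in As300 and 1475 to 1728 in the other groups. Total counts per library ran from 39157647 to 55168642. In a whole tumor, fewer cells of a type cannot be told apart from less RNA per cell, and the part of these mixtures in the results below was not tested.

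All 10 members were expressed in every tumor and passed the filter on low counts, with no fewer than 624 counts in any library. Levels per length (CPM per kilobase of exon, averaged over the 12 tumors) were highest for Etv4 at 41.2 ± 5.78 (SD, n = 12), Dusp5 at 34.7 ± 4.59 and Dusp6 at 34.0 ± 3.90. Phlda1 followed at 26.2 ± 5.42, Spred1 at 20.9 ± 2.45, Spry4 at 18.8 ± 3.54 and Dusp4 at 18.7 ± 5.53 CPM per kilobase. Hras at 11.8 ± 1.83, Etv5 at 11.1 ± 0.718 and Spry2 at 10.01 ± 1.05 were lowest. Each gene overlapped its neighbor in this order in the range over tumors. With the length of the longest transcript in place of all exons, Etv4 read 53.3, Dusp6 38.1 and Dusp5 34.7 CPM per kilobase, so that Dusp6 and Dusp5 changed places. The members varied little from tumor to tumor. The ratio of the highest to the lowest tumor was 1.19 for Etv5, the steadiest member, and 2.73 for Dusp4. The biological coefficient of variation within groups lay between 0.0938 for Etv5 and 0.216 for Dusp4, beside a median of 0.232 over all 20818 genes tested. Those genes were not matched to the members by level.

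**Figure D1:**
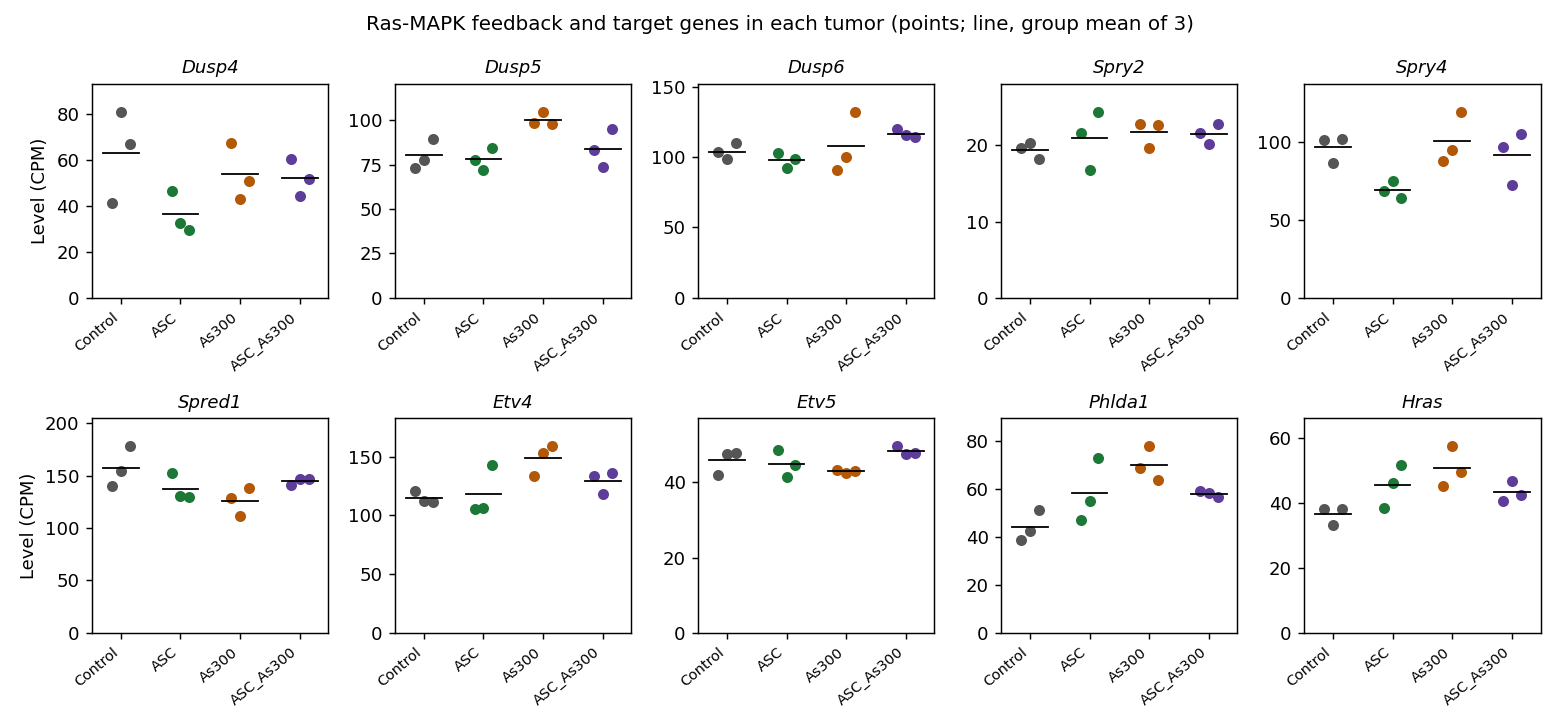
Level of each of the 10 members (CPM, TMM-scaled, axis from 0) in each tumor, with points for tumors and a line for the mean of the 3 tumors of a group. Phlda1 and Hras were lowest in Control and highest in As300, Spry4 was lowest in ASC, and Etv5 stayed between 41.6 and 49.6 CPM in all 12 tumors.

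Promoter sequence was at hand for 6 of the 10 members (RefSeq, GRCm38.p6, 250 bases before to 50 bases after the start of transcription): Dusp5, Dusp6, Spry2, Spred1, Etv5 and Hras. Etv5 had 2 entries. Both strands were searched for the cAMP response element TGACGTCA, the AP-1 element TGANTCA, the ETS element ACCGGAAG, the CArG box bound by serum response factor, and the SP1 element GGGGCGGG. Of all 32851 promoters in the table, 1.79% held the first, 7.81% the second, 2.3% the third, 1.63% a CArG box and 16.5% an SP1 element. The promoters printed are those of the 3 matched members for which the 95% interval of the difference between As300 and Control left out 0, read 5′ to 3′ on the strand of the gene with matches in capitals. Dusp5 (chr19:53528895-53529194, plus strand) held 2 CArG boxes end to end, sharing no base, and, before them, 1 SP1 element. Hras (chr7:141193955-141194254, minus strand) held 1 SP1 element. Spred1 (chr2:117120821-117121120, plus strand) held none of the 5 elements, nor did Dusp6, Spry2 or Etv5. The Spred1 window ends before the gene interval given below begins, because that interval comes from another annotation (GENCODE M21). The elements and base composition given for Spred1 thus refer to the RefSeq start only.
Dusp5: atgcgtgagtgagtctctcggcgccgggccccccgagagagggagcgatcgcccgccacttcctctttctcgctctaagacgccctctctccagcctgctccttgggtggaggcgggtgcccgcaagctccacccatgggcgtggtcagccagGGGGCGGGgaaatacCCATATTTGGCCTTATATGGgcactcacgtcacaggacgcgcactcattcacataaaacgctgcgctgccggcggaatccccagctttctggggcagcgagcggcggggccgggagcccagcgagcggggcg
Hras: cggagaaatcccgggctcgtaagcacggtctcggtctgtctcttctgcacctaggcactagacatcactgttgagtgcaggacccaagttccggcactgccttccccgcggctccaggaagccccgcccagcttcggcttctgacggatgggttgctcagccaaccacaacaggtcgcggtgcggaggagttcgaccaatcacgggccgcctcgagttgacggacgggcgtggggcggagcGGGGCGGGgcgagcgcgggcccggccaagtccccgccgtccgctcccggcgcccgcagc
Spred1: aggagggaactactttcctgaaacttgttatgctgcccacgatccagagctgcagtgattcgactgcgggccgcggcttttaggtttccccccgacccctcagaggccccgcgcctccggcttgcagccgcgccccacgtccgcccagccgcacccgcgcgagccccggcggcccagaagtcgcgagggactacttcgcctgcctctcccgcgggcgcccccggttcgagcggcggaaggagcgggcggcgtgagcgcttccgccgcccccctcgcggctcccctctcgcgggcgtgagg
All 3 were rich in G and C, at 66.7% for Dusp5, 69.0% for Hras and 72.3% for Spred1 beside a median of 52.7% over all promoters, and held 28, 34 and 40 CG dinucleotides beside a median of 7. Past the promoter they differed, with a GC content of the longest transcript of 56.7% for Dusp5, 55.2% for Hras and 41.2% for Spred1.

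The groups were compared with edgeR's quasi-likelihood test over 20818 genes, and the threshold of a call was an adjusted p (Benjamini-Hochberg) below 0.05 together with a difference of 1.5-fold or more. Over 8 comparisons of 10 members, 1 of 80 results was called, namely Phlda1, which rose in As300 against Control. In As300 against Control 1.06% of all genes tested were called, in ASC against Control 0.721%, and in ASC_As300 against Control 0.807%. Members with an unadjusted p under 0.05 numbered 2 higher and 2 lower in ASC, 4 higher and 1 lower in As300, and 1 higher in ASC_As300, where 15.4%, 24.1% and 15.2% of all genes had such a p. The median absolute log2 fold change of the members was 0.15 in ASC, 0.27 in As300 and 0.16 in ASC_As300, beside 0.24, 0.29 and 0.24 over all genes, not matched by level. These 3 comparisons share the Control tumors.

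**Figure D2:**
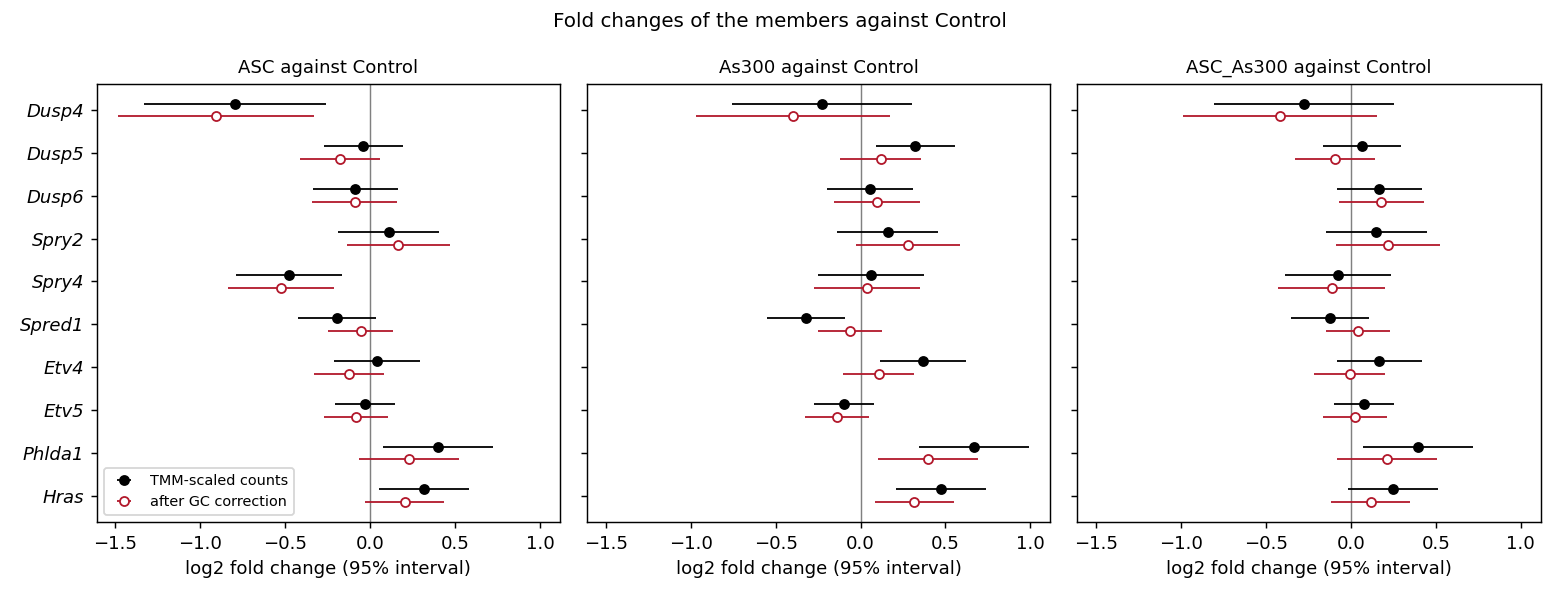
Log2 fold change of each member against Control with its 95% interval, from TMM-scaled counts (black, filled) and after a correction of each tumor for transcript GC content (red, open). Phlda1 in As300 was the 1 call among the black points (0.67), and after the correction no member was called.

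None of the 3 MAP kinase phosphatases was called by edgeR in any of the 8 comparisons. Dusp4, a nuclear phosphatase of ERK and other MAP kinases (chromosome 8, 34807297 to 34819894, plus strand, GRCm38), was at 41.1, 81.0 and 66.9 CPM in Control replicates 1, 2 and 3. It was at 46.4, 32.7 and 29.7 CPM in ASC, at 67.5, 43.0 and 51.0 in As300, and at 60.3, 44.4 and 51.7 in ASC_As300. The ASC tumors lay low, but ASC replicate 1 overlapped Control replicate 1. The log2 fold change of ASC against Control was -0.80 (95% interval -1.33 to -0.26, edgeR adjusted p = 0.169), the largest of the members in size and short of a call. DESeq2 called it (-0.80, adjusted p = 0.0180), and so did edgeR without Control replicate 1 (-1.02, adjusted p = 0.0478). In ASC_As300 the log2 fold change against Control was -0.27 (-0.80 to 0.26, adjusted p = 0.636).

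Dusp5, a nuclear phosphatase that binds ERK (chromosome 19, 53529109 to 53542431, plus strand), was at 73.4, 78.0 and 89.6 CPM in Control and at 98.6, 105 and 97.8 in As300, so that these groups did not overlap. It was at 77.8, 71.8 and 84.6 CPM in ASC and at 83.1, 73.6 and 95.3 in ASC_As300, both overlapping Control. Its log2 fold change in As300 was 0.32 (0.09 to 0.55, adjusted p = 0.0939). An antisense gene, AC137853.2, overlaps its start with at most 50 counts in any library, and the strand setting of the counting is not given in the sources used here. Dusp6, the cytoplasmic phosphatase of ERK (chromosome 10, 99263231 to 99267489, plus strand), was at 103, 98.5 and 109.7 CPM in Control and at 91.0, 100.3 and 132 in As300, with Control inside the range of As300. It was at 103, 91.9 and 98.9 CPM in ASC and at 119.95, 116 and 114 in ASC_As300. ASC_As300 lay above both the ASC and the Control tumors without overlap, with log2 fold changes of 0.25 against ASC (0.003 to 0.51, adjusted p = 1) and 0.17 against Control (-0.08 to 0.42, adjusted p = 0.520).

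Among the upstream inhibitors, Spry4, a Sprouty protein induced by receptor signaling (chromosome 18, 38586247 to 38601415, minus strand), stood apart in ASC. It was at 101, 86.5 and 102 CPM in Control and at 68.9, 74.9 and 64.0 in ASC, with every ASC tumor below every Control tumor. It was at 87.9, 95.2 and 119.6 CPM in As300 and at 97.0, 72.6 and 105 in ASC_As300, where replicate 2 alone was as low as the ASC tumors. The log2 fold change of ASC was -0.48 (-0.79 to -0.17, unadjusted p = 0.00578, edgeR adjusted p = 0.164), not called. Over both iAs levels the difference with ASC was -0.31 (-0.53 to -0.09, adjusted p = 0.222). Between ASC_As300 and ASC it was 0.40 (0.09 to 0.72, adjusted p = 1), and the interaction of ASC and iAs, the test of whether the ASC difference changed with iAs, was 0.34 (-0.10 to 0.78, adjusted p = 0.473). The small RNA genes Gm27369 and Gm27804, on the other strand within Spry4, had at most 2 and 4 counts in any library.

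Spry2, the other Sprouty gene (chromosome 14, 105891947 to 105896819, minus strand), was the least abundant member, at 19.6, 20.4 and 18.2 CPM in Control. It ranged from 16.7 to 24.4 CPM in ASC, from 19.6 to 22.8 in As300 and from 20.2 to 22.8 in ASC_As300, so that all groups overlapped. Its log2 fold changes against Control were 0.11, 0.16 and 0.15 in ASC, As300 and ASC_As300, with adjusted p of 0.761, 0.530 and 0.644. Spred1, which brings the Ras inactivator neurofibromin to the membrane (chromosome 2, 117121374 to 117182279, plus strand), was at 140.5, 154 and 178 CPM in Control and at 129, 111 and 138 in As300, below Control in each tumor. It was at 153, 131 and 129 CPM in ASC and at 141, 146 and 147 in ASC_As300, both overlapping Control. Its log2 fold change in As300 was -0.32 (-0.55 to -0.09, adjusted p = 0.0946), and the interaction was 0.39 (0.07 to 0.72, adjusted p = 0.320).

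Of the transcription factors, Etv4 (chromosome 11, 101769742 to 101785371, minus strand) was at 121, 113 and 112 CPM in Control and at 133, 153 and 159 in As300, without overlap. It was at 105, 107 and 143 CPM in ASC, where replicate 3 stood above the other 2, and at 134, 118 and 136 in ASC_As300. Its log2 fold change in As300 was 0.37 (0.12 to 0.62, adjusted p = 0.0850). Etv5 (chromosome 16, 22381309 to 22439719, minus strand) was at 42.1, 47.7 and 47.9 CPM in Control, at 48.7, 41.6 and 44.7 in ASC, at 43.2, 42.6 and 43.0 in As300 and at 49.6, 47.7 and 47.9 in ASC_As300. Its log2 fold changes against Control lay between -0.10 and 0.08, and the 3 intervals together ran from -0.27 to 0.25. The difference between Etv4 and Etv5 in As300 was not tested.

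Phlda1, a pleckstrin homology-like protein induced by growth factors (chromosome 10, 111506286 to 111508645, plus strand), was at 38.9, 42.3 and 51.4 CPM in Control. It was at 68.9, 77.95 and 63.7 CPM in As300, at 46.9, 54.9 and 73.2 in ASC and at 59.3, 58.5 and 56.6 in ASC_As300. The As300 and ASC_As300 tumors all exceeded the Control tumors, while ASC replicate 1 fell within Control. Phlda1 rose in As300 by 0.67 on the log2 scale (0.34 to 0.99, edgeR adjusted p = 0.0450), a 1.59-fold difference that was higher in 3 of 3 tumors. Its log2 fold changes in ASC and ASC_As300 were 0.40 (adjusted p = 0.230) and 0.40 (adjusted p = 0.245). The interaction was -0.67 (-1.13 to -0.21, unadjusted p = 0.00749, adjusted p = 0.309). The call lay close to the threshold. With single tumors left out in turn it was lost in 10 of 12 fits (adjusted p 0.0173 to 0.190), including each Control and each As300 tumor, with no filter on low counts (adjusted p = 0.0670) and without the 2 tumors richest in muscle RNA (0.65, adjusted p = 0.146). An antisense gene, Gm28592, overlaps it with at most 8 counts in any library.

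Hras, the Ras gene of the list (chromosome 7, 141189105 to 141194005, minus strand), was at 38.1, 33.2 and 38.1 CPM in Control and at 45.1, 57.5 and 49.4 in As300, at 38.5, 46.2 and 51.7 in ASC and at 40.7, 46.8 and 42.3 in ASC_As300. No tumor of the other groups fell within the Control range, although ASC replicate 1 exceeded it narrowly. Counts of a Ras gene introduced into the cells cannot be told apart from those of the resident gene here. Its log2 fold changes against Control were 0.47 in As300 (0.21 to 0.74, adjusted p = 0.0543), 0.32 in ASC (0.05 to 0.58, adjusted p = 0.245) and 0.25 in ASC_As300 (-0.02 to 0.51, adjusted p = 0.364), none of them called. The interaction was -0.55 (-0.92 to -0.17, adjusted p = 0.309). Neuronal marker genes, 6 in all, had their lowest sums in the Control tumors too (57.3 to 73.6 CPM, beside 83.3 to 139 in the other 9), and their part in the levels of Hras and Phlda1 was not tested.

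Counted over the list, 5 of 10 members had no overlap between As300 and Control (Dusp5, Spred1, Etv4, Phlda1 and Hras), where 29.9% of all genes did. In ASC 2 members did not overlap with Control (Spry4 and Hras), against 19.0% of all genes, and in ASC_As300 3 did not (Dusp6, Phlda1 and Hras), against 25.6%. The remaining comparisons called no member. In ASC_As300 against As300 0.855% of all genes were called, and for the ASC effect over both iAs levels 1.45%. In ASC_As300 against ASC, in the iAs effect (both ASC levels together) and in the interaction, edgeR called 0.0% of all genes, with 669, 3325 and 2836 genes at an unadjusted p under 0.05, while DESeq2 called 11, 114 and 174. For the iAs effect over both ASC levels 9 of 10 members lay higher and 5 had an unadjusted p under 0.05, all 5 higher (Dusp5, Spry4, Etv4, Phlda1 and Hras). Of all 20818 genes tested 16.0% had such a p, with 1564 genes higher and 1761 lower. The median log2 difference of the 10 members was 0.18 beside -0.02 over all genes, and the smallest adjusted p was 0.194. After the correction for transcript GC content, 9 members lay higher and 2 had an unadjusted p under 0.05 (Dusp6 at 0.18 and Spry4 at 0.22). Of all 20818 genes tested 2156 then had such a p, 1162 of them higher. The median absolute difference of the members went from 0.18 to 0.11, and their smallest adjusted p was 0.468.

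GC content moved with the groups. Over all genes tested, the median log2 fold change of As300 against Control climbed from -0.27 in the fifth of the genes with the lowest transcript GC content to 0.24 in the fifth with the highest. In ASC it went from -0.16 to 0.15 and in ASC_As300 from -0.19 to 0.16. The difference between these 2 sets of genes, taken in each tumor relative to the mean of the 12 tumors, lay between -0.38 and -0.23 on the log2 scale in Control, between -0.16 and 0.19 in ASC, between 0.06 and 0.39 in As300 and between -0.02 and 0.10 in ASC_As300. All 3 Control tumors thus lay below the other 9. Across the 12 tumors this GC difference had a Pearson r of 0.91 with log2 CPM of Hras (Spearman rho 0.95, permutation p = 7e-05 for r, adjusted p = 0.0007 over 10 members), 0.87 with Phlda1 (rho 0.89, permutation p = 0.00027, adjusted p = 0.00135), -0.81 with Spred1 (rho -0.73, permutation p = 0.00143, adjusted p = 0.00477) and 0.76 with Etv4 (rho 0.71, permutation p = 0.00476, adjusted p = 0.0119). Without the 2 tumors farthest from the median GC difference r was 0.90, 0.94, -0.52 and 0.67. On deviations from the group means it was 0.78, 0.58, -0.66 and 0.63, and none passed the adjustment (exact permutation within groups, smallest adjusted p = 0.275). The remaining members had r of 0.52 (Dusp5), 0.38 (Spry2), 0.09 (Dusp6), -0.08 (Spry4), -0.34 (Etv5) and -0.41 (Dusp4) over the 12 tumors (permutation, adjusted p 0.165 to 0.803). The transcripts of Phlda1 (58.9% GC), Etv4 (58.7%), Dusp5 (56.7%), Dusp4 (56.0%) and Hras (55.2%) are above the median of 49.1% over the genes tested. So are those of Etv5 (51.8%) and Spry4 (51.2%), while that of Spred1 (41.2%) is the lowest of the members.

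**Figure D3:**
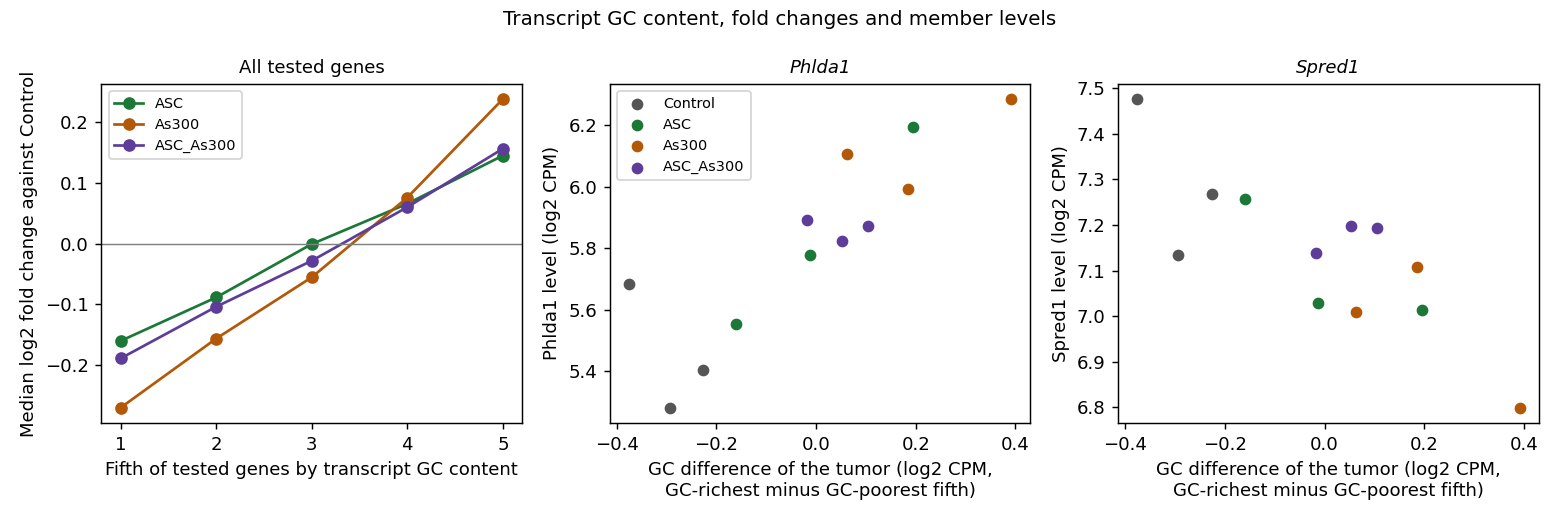
Left, median log2 fold change against Control of all genes tested, in 5 sets of equal size by transcript GC content. Middle and right, level of Phlda1 and of Spred1 (log2 CPM) against the GC difference of each tumor, the median of the GC-richest set minus that of the GC-poorest (log2 CPM relative to the mean of the 12 tumors). The 3 Control tumors lay at the left of both plots, and As300 replicate 2 at 0.39 at the right.

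With each tumor corrected for this trend, an alternative added after the data were seen, edgeR called 0 genes in As300 against Control (3371 had an unadjusted p under 0.05) and 158 in ASC. Phlda1 was then at 0.40 in As300 (0.10 to 0.69, adjusted p = 0.194) and Hras at 0.32 (0.08 to 0.55, adjusted p = 0.190). Dusp5, Etv4 and Spred1 were at 0.12, 0.11 and -0.06 in As300, each with an interval that held 0. The 2 members that stood low in ASC kept their size: Spry4 was at -0.53 (-0.84 to -0.21, adjusted p = 0.155) and Dusp4 at -0.91 (-1.49 to -0.33, adjusted p = 0.177). The median absolute log2 fold change of the 10 members in As300 went from 0.27 to 0.13. The GC difference moved with the groups, so the correction may also take out differences between the groups. The part of the trend in the members' differences cannot be told apart from these. Its origin was not tested, and no library or sequencing batch is given in the labels.

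Members were compared with each other across tumors in 45 pairs of log2 CPM values. Pearson's r was above 0 in 29 pairs, with a median of 0.18, and 1 pair passed the adjustment over 45 pairs. That pair was Phlda1 and Hras (r = 0.88, permutation p = 0.00013, adjusted p = 0.00585, rho 0.87, permutation p = 0.00034, adjusted p = 0.0153, n = 12). Without the 2 tumors farthest from the median of Phlda1 its r was 0.87 (permutation, adjusted p = 0.0612). On deviations from the group means it was 0.69 (exact permutation p = 0.0826, adjusted p = 0.767), and after the GC correction 0.79 (permutation p = 0.0021, adjusted p = 0.0945). Spred1 ran against Hras (r = -0.78, permutation p = 0.00349, adjusted p = 0.0785) and stood at -0.23 after the GC correction. Dusp5 and Etv4 gave 0.76 before and 0.64 after it, and Spred1 and Etv5 0.67 and 0.72. Of the 45 pairs, 11 had an unadjusted permutation p of r under 0.05. Etv4 and Phlda1 gave 0.72 before and 0.35 after the GC correction, and Dusp4 and Hras -0.59 and -0.67. On deviations from the group means, Dusp4 and Hras had the r farthest from 0 (-0.83, exact permutation p = 0.00463, adjusted p = 0.208). The pairs nearest 0 were Dusp6 at 0.03 against both Phlda1 and Hras, and Spry4 at -0.03 against Spry2.

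**Figure D4:**
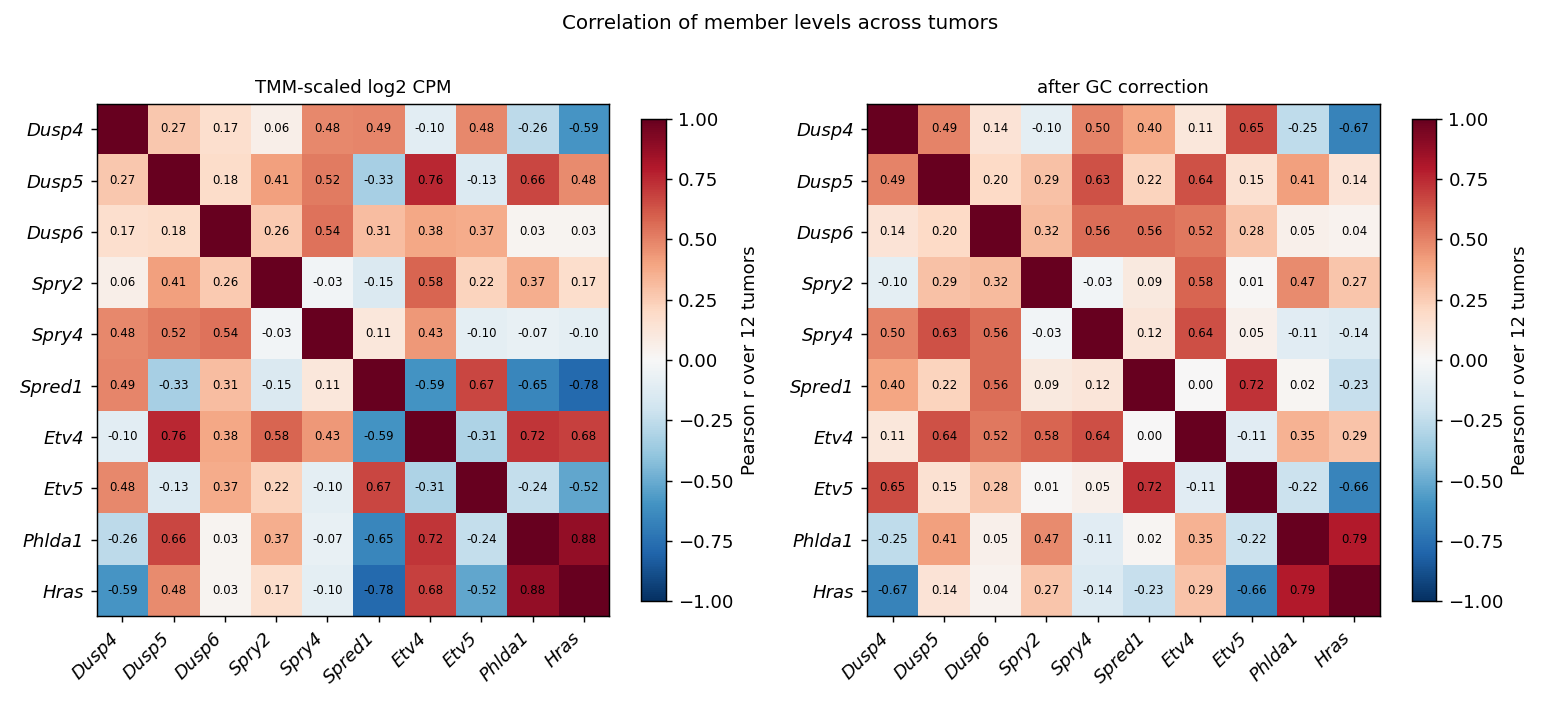
Pearson r of log2 CPM over 12 tumors for each pair of members, from TMM-scaled values (left) and after the GC correction (right), with color from blue at -1 to red at 1. Phlda1 with Hras was highest at left (0.88), and Spred1 with Hras, at -0.78 on the left, was at -0.23 on the right.

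The genes whose levels ran most like each member were sought among 13159 others with a mean log2 CPM of at least 1, and are given as a description over 12 tumors. Spry4 ran most like Areg (r = 0.958), which encodes the EGF receptor ligand amphiregulin, then Add2 (0.921) and Bcorl1 (0.919). Dusp4 ran most like P4ha1 (0.923), a collagen prolyl hydroxylase subunit, then Dcun1d3 and Nptx1. Dusp6 ran most like Nt5c2 (0.874), Dusp5 like Wdr45 (0.912), Spry2 like Gm5822 (0.838) and Etv5 like Styk1 (0.923). For Etv4, Wbp2 (0.952) and Cbx6 (0.951) are given. Phlda1 ran most like Wdr34 (0.973) and Hras like Lamtor1 (0.977), while the 3 genes most like Spred1 (Orc4, Eif1a and Atp13a3, 0.952 to 0.956) include transcripts as low as 36.8% GC.

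Other genes of the pathway were taken as 5 further lists. Of 21 other feedback genes tested, none was called in any comparison. Rasa1 and Rasa2, which inactivate Ras, were at -0.55 and -0.47 in As300 (adjusted p = 0.0562 and 0.0636). In ASC they were at -0.59 and -0.47 (edgeR adjusted p = 0.0979 and 0.137), and in ASC_As300 at -0.47 and -0.26 (edgeR adjusted p = 0.169 and 0.366). Rasal1, with 16 to 61 counts per library, was at -1.30 in ASC_As300 (adjusted p = 0.159) and at -0.86 in ASC (edgeR adjusted p = 0.315). The smallest adjusted p in ASC belonged to Errfi1, a cytoplasmic inhibitor of the EGF receptor. Errfi1 was at 618, 607 and 636 CPM in Control and at 445, 421 and 434 in ASC, far apart, and at 517 to 676 in As300 and 556 to 618 in ASC_As300. Its log2 fold change in ASC was -0.52 (edgeR adjusted p = 0.0236), below 1.5-fold, with the same direction in all 20 alternatives and an adjusted p under 0.05 in 14 of them, the GC correction included (-0.49, adjusted p = 0.0288). Its difference between ASC_As300 and ASC was 0.43 (adjusted p = 1) and its interaction 0.52 (adjusted p = 0.309). Areg, in the list of ERK targets, was also low in ASC, at 13.2, 10.3 and 16.2 CPM in Control, 7.53, 6.89 and 5.57 in ASC, 11.8 to 16.1 in As300 and 7.72 to 14.4 in ASC_As300. The log2 fold change of Areg in ASC was -0.99 (adjusted p = 0.0896), and DESeq2 called it (adjusted p = 0.00202). Spry4, Errfi1 and Areg were thus lower in each ASC tumor than in each Control tumor, as were Rasa1, Rasa2 and Rasal1. Of all genes tested, 19.0% had no overlap between ASC and Control. Errfi1, Areg, Rasa1, Rasa2 and Rasal1 are named for their small p, so their separation from Control is not a separate result. The share of all genes on their lists without overlap was not counted. In the same ASC tumors, and in ASC_As300, 8 of 8 genes of the interferon gamma response were called up, with sums of 1123 to 1463 CPM beside 173 to 315 in Control and As300.

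Of 26 other ERK target genes tested, 1 was called in As300. Ier3, an immediate early gene that prolongs ERK signaling, was at 60.8, 58.0 and 64.6 CPM in Control and at 97.5, 107 and 86.4 in As300, all above Control, with a log2 fold change of 0.67 (edgeR adjusted p = 0.0356). After the GC correction it was 0.54 (adjusted p = 0.0931), and the call was kept in 6 of the 12 fits without 1 tumor (adjusted p 3.78e-08 to 0.154 over 20 alternatives). In ASC_As300 Ier3 was at 96.1, 90.9 and 83.6 CPM, with a log2 fold change of 0.56 against Control (adjusted p = 0.00871), just under 1.5-fold, and of 0.45 after the GC correction (adjusted p = 0.0439). Kcnn4, a calcium-activated potassium channel, and Plaur, the urokinase receptor, had log2 fold changes of 0.57 (adjusted p = 0.0453) and 0.46 (adjusted p = 0.0450) in As300, below 1.5-fold, and of 0.54 (adjusted p = 0.121) and 0.37 (adjusted p = 0.152) after the correction.

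Among 7 other Ras-family GTPases none was called. Rras, whose transcript has 58.1% GC, was at 0.45 in As300 (adjusted p = 0.0507). Ralb and Rras2 were at 0.19 and -0.01 in As300 (adjusted p = 0.131 and 0.980). Of 19 genes of the cascade itself 1 was called in As300. Rasgrp3, which loads Ras with GTP, fell from 13.1, 8.60 and 9.31 CPM in Control to 5.98, 5.87 and 5.23 in As300 (log2 fold change -0.86, edgeR adjusted p = 0.0450). It was low without a call in ASC too, at 6.80, 7.66 and 5.43 CPM (-0.64, edgeR adjusted p = 0.165). The ASC_As300 tumors were at 6.46, 6.64 and 5.80 CPM (-0.72, edgeR adjusted p = 0.123). The As300 call was kept in 2 of the 12 fits without 1 tumor and lost after the GC correction (-0.70, adjusted p = 0.141). Mapk3, which encodes ERK1, was at 0.39 in As300 (adjusted p = 0.0430), below 1.5-fold, and at 0.16 after the correction (adjusted p = 0.306). Map2k2, which encodes MEK2, and the adaptor Grb2 were at 0.49 (adjusted p = 0.0539) and 0.26 (adjusted p = 0.0878) in As300. In ASC they were at 0.38 and 0.29 (edgeR adjusted p = 0.191 and 0.148), and in ASC_As300 at 0.36 and 0.25 (edgeR adjusted p = 0.219 and 0.196). Of 13 growth factor receptors tested none was called, with Erbb2 at 0.55 in ASC (adjusted p = 0.0775), Met at -0.43 in As300 (adjusted p = 0.0515), and Axl and Pdgfra at -0.03 and -0.32 there (adjusted p = 0.860 and 0.285).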

How the data were processed

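Tumors from 12 mice, 3 in each of 4 groups named from the sample titles, were analysed from the deposited table of counts. Per the labels and the study's methods, the authors prepared TruSeq stranded mRNA libraries, sequenced paired ends on an Illumina NovaSeq instrument, trimmed reads with Cutadapt 1.1.0, aligned with HISAT2 2.0 and quantified with StringTie 1.3.4 and Ballgown. The deposited values are whole-number counts without normalization. The counting step, its strand setting, the build and the annotation are not given in the sources used here.

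Symbols, lengths and GC content of the longest transcript came from GENCODE M21 (GRCm38), and 20789 of the 20818 genes tested had a GC value. Genes were filtered with filterByExpr, scaled by TMM and fitted with edgeR 4.0.16 (quasi-likelihood, R 4.3.3) with 1 mean per group over all 12 tumors. Intervals are 95% intervals of the fitted log2 fold change. In simulated data for ASC against Control, with 200 of 20219 genes changed, 89.5% of them were called, with 8 false calls. The simulated log2 changes were 1 or 2 in size, larger than any member's in the main fit. How often changes as small as the members' would be called was not tested. Unlike the real libraries, the simulated counts carried no trend with transcript GC content. The number of false calls under such a trend was not tested. Correlations used log2 CPM with a prior count of 2 and 100000 permutations (SciPy 1.17.1). Alternatives were DESeq2 1.42.0, its size factors, 2 other filters, only the groups compared, a replicate block, each tumor left out, and, added after the data were seen, a lowess correction for GC content (span 0.3) and a fit without the 2 tumors richest in muscle RNA. The members and the gene lists were chosen with earlier results of these data known. Named genes are all 10 members and, for each further list, genes called in any comparison or, where fewer than 4 were called, those with the smallest p against Control or in the interaction, up to 4 a list. The 3 genes most like each member were those with the highest Pearson r. Lists of epithelial, prostate, leukocyte, fibroblast, endothelial, muscle, adipocyte, neuronal, proliferation and interferon gamma response genes are given by their summed CPM. Tumor volume, flow cytometry, RT-qPCR and tumors of other days were not analysed here. Some genes of these lists are not reported here.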

Additional observations from a re-analysis of the deposited data

How the results depend on the processing

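None of the 1570 alternative values of the members changed direction where the interval of the main value left out 0, and 15 crossed the threshold of a call, 13 of them for Phlda1 in As300 and 2 for Dusp4 in ASC. Members called in As300 against Control went from 1 to 0 with no filter on low counts, after the GC correction and without the 2 tumors richest in muscle RNA, and lay between 0 and 1 when single tumors were left out. Members called in ASC against Control went from 0 to 1 with DESeq2 (Dusp4) and lay between 0 and 1 without single tumors. Pairs of members past the adjustment went from 1 to 0 on deviations from the group means, without the 2 tumors farthest from the median and after the GC correction. The replicate numbers do not pair the tumors (correlations of deviations between -0.12 and 0.17 for equal numbers). With a replicate block the number of members called was 1 in As300 and 0 in the other comparisons, as without it, and all genes called in As300 were 134 up and 61 down against 146 and 74. All genes called in As300 numbered 220, but 8 with no filter, 454 with at least 10 counts in every tumor, 816 with DESeq2, 0 after the GC correction, 0 without the 2 muscle-rich tumors and 0 to 399 without single tumors, with 0 in 5 of these 12 fits. Those 5 fits left out any 1 of the 3 Control tumors, ASC_As300 replicate 1 or ASC_As300 replicate 3. Without As300 replicate 2 or 3 it was 1 and 2, without ASC replicate 2 it was 28, and without ASC_As300 replicate 2 it was 7. For the iAs effect the 0 calls became 114 with DESeq2 and 59 without ASC replicate 3. In ASC the 150 calls became 450 with DESeq2, 89 with only the groups compared and 105 to 355 without single tumors (highest without ASC replicate 1). In ASC_As300 the 168 calls became 390 with DESeq2, 98 without the 2 muscle-rich tumors and 90 to 203 without single tumors. Against As300 the 178 calls of ASC_As300 became 399 with DESeq2 and 95 to 277 without single tumors, and the 301 of the ASC effect became 478 with DESeq2. The cause was not tested. With 3 tumors a group, the intervals of single members spanned 0.35 (Etv5) to 1.07 (Dusp4) on the log2 scale in ASC against Control, which limits what difference could be seen.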

Other observations

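Repeats of ATTTA, a short element found in many unstable mRNAs of immediate early genes, were counted after the stop codon of the longest coding transcript. They were present in 8 of the 10 members, all but Etv4 and Hras, beside 69.2% of 15311 genes tested. Spred1 had 12, Spry4 7, Etv5 5, Phlda1 3, Dusp4 and Spry2 2 each, and Dusp5 and Dusp6 1 each. Per kilobase the median was 1.88 in the members and 1.25 over all genes. Phlda1 had the highest density of the members, at 4.90 per kilobase, and of the other genes named above Areg had 15.8 and Ier3 8.16.

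The most abundant gene of the table, CT010467.1, held 3.23% to 11.4% of each library's total, and was highest in ASC replicate 2 and As300 replicate 1. Adipocyte genes, 5 in all, summed in Control to between 127.8 and 269 CPM, in As300 to between 44.8 and 68.7, in ASC to between 42.3 and 508 and in ASC_As300 to between 31.0 and 56.5. Endothelial genes, 6 in all, summed to 141 to 241 CPM over the 12 tumors, and fibroblast genes, 8 in all, to 5296 to 10230. They are given as measured, and their part in the members' levels was not tested.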
